A study of Mus musculus with 4 samples.

Results

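The 10 genes described here encode the chondroitin sulfate proteoglycans of the brain's hyaluronan matrix and the proteins that tie them together: the lecticans *Bcan* (brevican), *Ncan* (neurocan), *Vcan* (versican) and *Acan* (aggrecan), the link proteins *Hapln1*, *Hapln2* and *Hapln4*, the tenascins *Tnr* and *Tnc*, and the receptor phosphatase *Ptprz1*. They were found by gene symbol, from a list drawn up with earlier results of these data known, and are 10 of the 32285 genes in the count matrices. The data are Visium spatial transcriptomes, in which mRNA from a fresh frozen, OCT-embedded tissue section is captured on barcoded spots, of 4 brain sections with the genotype *Nf1*+/-, in which a single copy of *Nf1*, the neurofibromatosis type 1 tumour suppressor gene, is intact. All 4 sections share this genotype and there was no other group, so the comparisons below are between kinds of spots within sections, with the section as the replicate (n = 4). The labels for these sections give neither the allele, the age, the sex nor whether the sections came from 4 animals, so p-values measure only the spread between these sections, which may be technical.

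Lecticans bind hyaluronan through one end and tenascin-R through the other, and link proteins lock the lectican to the hyaluronan chain. This aggregate fills the diffuse matrix of the whole brain and condenses into perineuronal nets, lattices rich in aggrecan that wrap the soma of fast-spiking parvalbumin interneurons and some projection neurons, and into sleeves at nodes of Ranvier, where *Hapln2* (Bral1) and the versican V2 isoform are found. Oligodendrocyte precursor cells (OPCs) and astrocytes are known sources of brevican, neurocan and PTPRZ1, and chondroitin sulfate proteoglycans are known for limiting axon growth and precursor differentiation.

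Several of the members lie side by side in the genome (RefSeq gene spans, assembly GRCm38.p6, the coordinate system of mm10). *Bcan* (chr3:87987531-88002175) and *Hapln2* (chr3:88020558-88027511) were 18382 bases apart, *Hapln4* (chr8:70083529-70090862) and *Ncan* (chr8:70093085-70120863) 2222 bases, and *Hapln1* (chr13:89540529-89611832) and *Vcan* (chr13:89655309-89743027) 43476 bases, each with no annotated gene between. *Acan* (chr7:79053226-79115099) lay 1927 bases from *Hapln3*, the link protein that is no member. *Tnr* (chr1:159523729-159931729), *Tnc* (chr4:63959785-64047015) and *Ptprz1* (chr6:22875315-23052916) had no member next to them.

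Below, *Hapln2* and *Tnc* were called higher in white matter-marker-high spots and *Acan* in spots high in a parvalbumin list, with few UMIs for *Tnc* and *Acan*. The upstream sequences of these 3 members are shown. Each is the 250 bases before the annotated start of transcription, from RefSeq (GRCm38.p6), 5′ to 3′ on the gene's strand: *Hapln2* chr3:88027512-88027761 on the minus strand, *Acan* chr7:79052976-79053225 on the plus strand and *Tnc* chr4:64047016-64047265 on the minus strand. Capitals mark matches, on either strand, to the CCAAT box, to the GC box GGGCGG, to the SOX-type word ACAATG, to its close relative ACAAAG and to the E-box CAGCTG.
Hapln2: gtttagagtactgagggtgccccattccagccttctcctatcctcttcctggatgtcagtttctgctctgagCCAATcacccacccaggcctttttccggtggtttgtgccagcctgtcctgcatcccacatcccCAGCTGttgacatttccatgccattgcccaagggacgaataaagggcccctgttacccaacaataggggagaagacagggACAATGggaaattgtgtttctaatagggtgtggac
Acan: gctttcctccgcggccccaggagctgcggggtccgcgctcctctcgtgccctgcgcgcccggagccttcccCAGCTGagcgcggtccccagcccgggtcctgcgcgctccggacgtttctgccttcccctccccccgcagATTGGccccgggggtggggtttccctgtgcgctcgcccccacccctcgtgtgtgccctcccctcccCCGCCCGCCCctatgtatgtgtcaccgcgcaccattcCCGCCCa
Tnc: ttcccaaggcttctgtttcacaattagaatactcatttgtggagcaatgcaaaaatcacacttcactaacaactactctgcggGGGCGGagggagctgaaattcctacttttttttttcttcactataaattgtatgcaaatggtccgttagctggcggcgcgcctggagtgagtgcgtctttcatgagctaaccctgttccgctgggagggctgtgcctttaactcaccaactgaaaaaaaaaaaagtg
The *Hapln2* window held 2 CG dinucleotides and the *Acan* window 26, against a median of 6 over all 32851 promoter windows, and the *Tnc* window held 8. GC content was 52.4% for *Hapln2*, 74.4% for *Acan* and 44.8% for *Tnc*. Another annotated start of *Tnc* has a window, not shown, at chr4:64046937-64047186, with 10 CG dinucleotides and 51.2% GC. The *Acan* capitals include 1 pair of overlapping GC boxes, and no other matches in these windows overlapped. Of the 9 members with a promoter entry, 4 had a CCAAT match, 6 a GGGCGG match, 1 an ACAATG match, 1 an ACAAAG match and 3 a CAGCTG match. The shares of all promoters holding these letters were 33.8%, 32.7%, 10.7%, 16.5% and 13.001% in the same order. A match is a description of the letters and not of a bound site. Whether the letters bear on any result below was not tested.

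Unique molecular identifiers (UMIs), each standing for 1 captured mRNA molecule, were counted per gene and spot. Spots with at least 500 UMIs were used, 1537, 2358, 2294 and 1431 in sections 1 to 4 and 7620 in all, with 19261103 to 37001945 UMIs per section and a median of 8862.5 to 15296.5 UMIs per spot. A spot covers several cells, so a difference between spots can come from more cells of a type or more RNA per cell, which cannot be told apart here. The number of spots with at least 3 choroid plexus markers ran from 4 to 189 between sections.

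*Bcan* was the most abundant of the 10 genes and *Acan* and *Tnc* the least. Levels are counts per 1e+06 UMIs of the section or spot group (CPM), and since the libraries are read from the 3′ end they count molecules and were not divided by length; isoforms such as those of *Vcan* are not separated. Among the lecticans, *Bcan* was at 138, 155, 154 and 125 CPM in sections 1 to 4 (143 ± 14.1, mean ± SD, n = 4), and *Ncan* at 66.5, 71.2, 60.4 and 68.1 CPM (66.6 ± 4.55). *Vcan* was at 8.39, 10.4, 9.13 and 12.8 CPM (10.2 ± 1.92), and *Acan*, the lectican that defines perineuronal nets, at 1.19, 0.919, 0.909 and 1.61 CPM (1.16 ± 0.329), which rests on 113 UMIs in all 4 sections together. The link proteins differed in how even they were between sections. *Hapln4* (Bral2), a link protein made by neurons, was at 41.6, 64.7, 57.5 and 77.7 CPM (60.4 ± 15.1), the widest ratio of highest to lowest section, 1.87-fold. *Hapln2* was at 19.9, 13.3, 19.0 and 19.9 CPM (18.0 ± 3.19), with section 2 below the others. *Hapln1*, the link protein of nets, was at 7.67, 9.54, 10.3 and 8.05 CPM (8.89 ± 1.24).

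Of the tenascins, *Tnr*, made mainly by oligodendroglial cells and some interneurons, was at 38.9, 45.3, 40.3 and 46.0 CPM (42.6 ± 3.53), and *Tnc*, the form of immature and reactive tissue, at 1.36, 0.973, 1.09 and 0.935 CPM (1.09 ± 0.194, 110 UMIs). *Ptprz1*, a transmembrane phosphatase that carries chondroitin sulfate and binds tenascins and contactin, was at 101, 98.7, 92.3 and 93.4 CPM (96.3 ± 4.07), the most even of the 10 at 1.09-fold between sections. In the order of the means, *Bcan*, *Ptprz1* and *Ncan* did not overlap with each other over the sections, and neither did *Tnr*, *Hapln2* and *Vcan*. The section ranges of *Ncan* and *Hapln4*, of *Hapln4* and *Tnr*, of *Vcan* and *Hapln1*, and of *Acan* and *Tnc* overlapped, so those neighbours are not ordered beyond their spread.

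**Figure D1:**
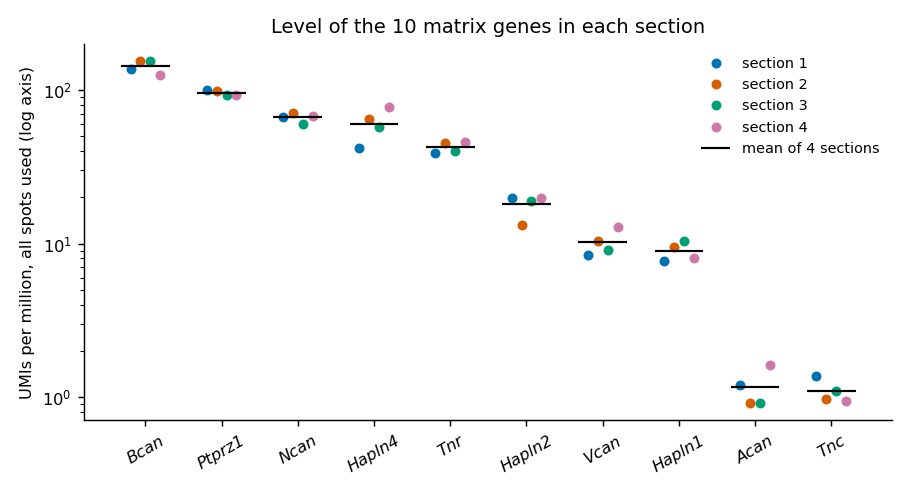
CPM in all spots used (log axis) for the 10 matrix genes, with 1 point per section and a line at the mean of the 4 sections. The means run from 143 for *Bcan* to 1.09 for *Tnc*, and *Hapln4* spreads most, from 41.6 to 77.7.

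To ask which kinds of spots hold each gene, every spot was scored for 5 lists of marker genes, none of which contains a member. The score is the excess of the list's UMIs over the number that the spot's total predicts, and the 10% of spots with the largest excess in a section are called marker-high (154, 236, 229 and 143 spots). UMIs were summed per section over marker-high and over all other spots and tested with edgeR's quasi-likelihood test with section as a block, with p-values adjusted by Benjamini-Hochberg over all genes tested. A gene passed at an adjusted p under 0.05. Because the 5 comparisons use the same spots in different splits, they are not independent of each other.

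**Figure D2:**
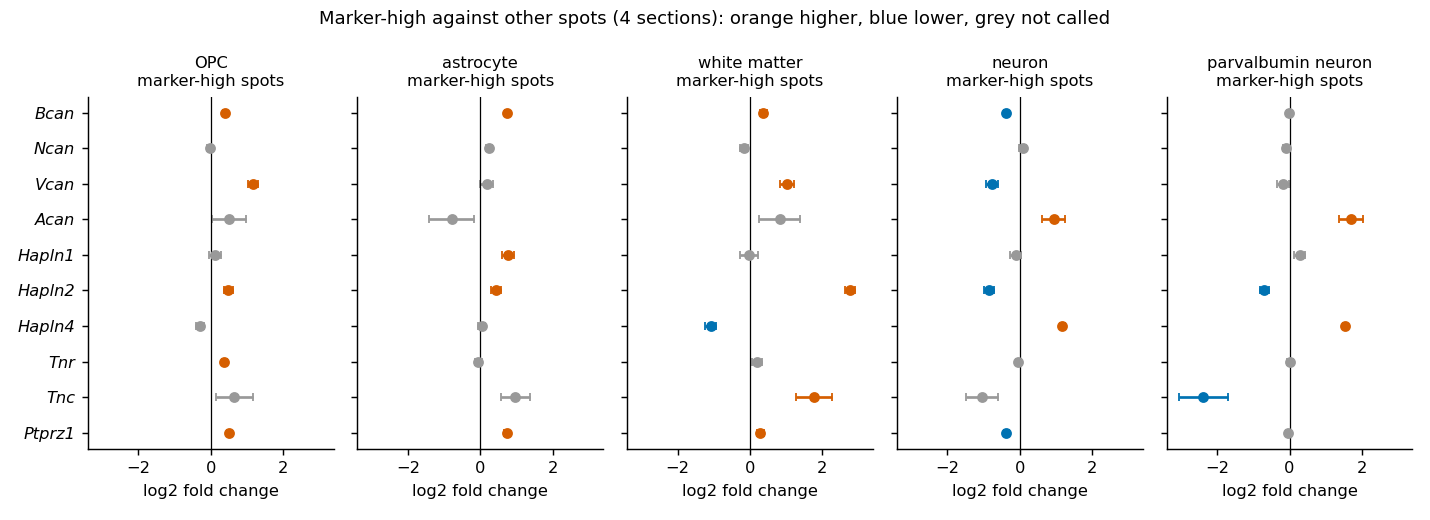
Log2 fold change of each of the 10 genes in marker-high against other spots for 5 marker lists, with bars of 1 standard error over the 4 sections; orange genes passed as higher, blue as lower and grey did not pass. *Hapln2* stands farthest to the right for white matter at 2.76, and *Hapln4* changes side between white matter at -1.09 and the parvalbumin list at 1.53.

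In spots rich in OPC markers (*Pdgfra*, *Cspg4* and 6 others), 5 of the 10 members passed, all of them higher, where 5.88% of all 14259 genes tested passed in either direction. The median log2 fold change of the members was 0.45, against 0.00 for all genes. The largest was the lectican *Vcan*, at 15.0, 20.1, 21.6 and 25.8 CPM in OPC-marker-high spots of sections 1 to 4 and 7.73, 9.46, 7.89 and 11.4 CPM in the other spots. Every high value lay above every other value, and the log2 fold change was 1.16 ± 0.13 (SE; edgeR adjusted p = 9.04e-07). *Ptprz1* was at 143, 131, 137 and 122 CPM against 96.5, 95.7, 87.8 and 90.5 CPM, again with no overlap, a log2 fold change of 0.52 ± 0.06 (edgeR adjusted p = 2.58e-07). *Bcan* was at 180, 186, 202 and 172 CPM against 134, 152, 149 and 120 CPM, a log2 fold change of 0.41 ± 0.05 (edgeR adjusted p = 4.48e-06). The 3 genes are thus higher in every section, *Vcan* by the most.

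*Tnr*, the tenascin that crosslinks lecticans, was at 51.6, 59.2, 44.3 and 61.2 CPM in OPC-marker-high spots and 37.7, 44.0, 39.9 and 44.5 CPM elsewhere, and section 3 had the smallest difference. Its log2 fold change was 0.38 ± 0.08 (edgeR adjusted p = 0.00223), and it did not pass without section 2 (0.35, adjusted p = 0.0517). *Hapln2*, the nodal link protein, was at 27.2, 16.7, 26.7 and 28.6 CPM against 19.2, 12.98, 18.2 and 19.1 CPM (log2 fold change 0.49 ± 0.11, edgeR adjusted p = 0.00582). With white matter-marker-high spots left out, a choice made after seeing the data, *Hapln2* was at 0.17 (edgeR adjusted p = 0.668), while *Vcan* (1.11), *Ptprz1* (0.52), *Bcan* (0.41) and *Tnr* (0.38) still passed. The *Hapln2* call was lost in 4 of 16 alternatives, this one among them.

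The neuronal link protein *Hapln4* did not pass in OPC-marker-high spots (-0.28 ± 0.11, edgeR adjusted p = 0.15). It was at 58.1, 48.8, 40.7 and 51.6 CPM there and 40.0, 66.2, 59.1 and 80.4 CPM elsewhere, so section 1 ran opposite to the other 3. Without section 1 it was called lower (-0.52, edgeR adjusted p = 6.76e-05). *Ncan* (-0.03 ± 0.08), *Hapln1* (0.12 ± 0.18), *Acan* (0.51 ± 0.47) and *Tnc* (0.66 ± 0.50) did not pass either, and for the last 2 the counts are few. All 4 OPC lineage genes kept out of the score (*Olig1*, *Olig2*, *Sox10* and *Gpr17*) were higher in these spots, with a median log2 fold change of 1.09. The 8 white matter markers were higher there too (median 0.43; summed 1062 to 1901 CPM against 814 to 1317 CPM), and 14.8% to 19.6% of OPC-marker-high spots were also white matter-marker-high. In sections 1 to 4, 19.5%, 3.81%, 7.86% and 4.90% of OPC-marker-high spots were also high in the parvalbumin list described below. Whether this overlap bears on *Hapln4* in section 1 was not tested. Without the section as a block 2 members passed in place of 5.

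In spots rich in astrocyte markers (*Aqp4*, *Gja1* and 6 others), 4 members passed, all higher, where 16.0% of 14392 genes passed; the members' median was 0.33 and that of all genes 0.01. *Bcan* was at 225, 241, 246 and 193 CPM in astrocyte-marker-high spots and 130, 145, 145 and 119 CPM in the others. The groups did not overlap and the log2 fold change was 0.75 ± 0.06 (edgeR adjusted p = 1.09e-07). *Ptprz1* was at 176, 137, 156 and 139 CPM against 93.6, 94.6, 86.2 and 89.2 CPM, a log2 fold change of 0.73 ± 0.07 (edgeR adjusted p = 8.98e-07). *Hapln1* was at 9.93, 16.8, 15.0 and 14.0 CPM against 7.46, 8.75, 9.86 and 7.49 CPM, where section 1 in the marker-high group was barely above the highest of the others. Its log2 fold change was 0.76 ± 0.16 (edgeR adjusted p = 0.00297), and it did not pass without section 2 (0.60, adjusted p = 0.057).

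*Hapln2* was at 31.3, 13.3, 28.4 and 24.3 CPM in astrocyte-marker-high spots against 18.9, 13.3, 18.1 and 19.5 CPM, with no difference in section 2. It passed with a log2 fold change of 0.43 ± 0.13 (edgeR adjusted p = 0.0286), a call that was lost in 8 of 16 alternative settings, among them leaving out white matter-marker-high spots (0.23, adjusted p = 0.333) or any of sections 1, 3 and 4 (0.34 to 0.44, adjusted p = 0.0597 to 0.183). *Ncan*, a lectican of astrocytes and neurons, was at 72.5, 92.5, 70.3 and 67.5 CPM against 66.0, 68.9, 59.4 and 68.2 CPM and did not pass (0.23 ± 0.08, edgeR adjusted p = 0.0696). *Tnr* at -0.06 ± 0.10, *Vcan* at 0.18 ± 0.18 and *Hapln4* at 0.03 ± 0.09 did not pass. *Tnc* had 4, 8, 3 and 3 UMIs in these spots (log2 fold change 0.97 ± 0.41, edgeR adjusted p = 0.125), and *Acan* was at -0.80 ± 0.62.

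All 6 astrocyte genes kept out of the score were higher in these spots. Other cell types moved with them: 7 of 8 fibroblast markers were higher (median 1.94; summed 63.8 to 205 CPM against 33.9 to 61.8 CPM), as were 5 of 5 ependymal (median 1.43) and 6 of 6 endothelial markers (median 0.51). Without spots holding at least 3 fibroblast markers, *Bcan* (0.65, edgeR adjusted p = 7.39e-07), *Ptprz1* (0.70, adjusted p = 5.11e-06), *Hapln1* (0.66, adjusted p = 0.00971) and *Hapln2* (0.44, adjusted p = 0.0293) still passed.

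White matter-marker-high spots (*Mobp*, *Mog* and 6 others) had the strongest single member. *Hapln2* was at 83.3, 62.7, 107 and 136 CPM there and 15.9, 11.02, 14.4 and 15.3 CPM elsewhere. The lowest white matter value was well above the highest other value, and the log2 fold change was 2.76 ± 0.13 (edgeR adjusted p = 1.2e-11). These spots gave 20.7% to 27.8% of a section's *Hapln2* UMIs but 3.85% to 5.93% of all its UMIs. In all, 5 members were higher and 1 lower, where 24.9% of 14230 genes passed, and the members' median was 0.32 against -0.02 for all genes. The count of 5 includes *Tnc*, which the filter on low counts kept by way of these spots, where it is higher.

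*Vcan* was also higher in white matter-marker-high spots, at 15.1, 16.6, 19.4 and 28.3 CPM against 7.97, 10.1, 8.60 and 12.1 CPM (log2 fold change 1.02 ± 0.19, edgeR adjusted p = 0.000495), with no overlap. *Bcan* was at 167, 160, 204 and 182 CPM against 136, 154, 152 and 123 CPM (0.36 ± 0.09, edgeR adjusted p = 0.00844). This call was lost without section 3 (adjusted p = 0.0672). *Ptprz1* was at 128, 98.9, 106 and 125 CPM against 99.0, 98.7, 91.6 and 92.1 CPM and passed by little (0.28 ± 0.10, edgeR adjusted p = 0.0406), a call lost in 11 of 15 alternatives, among them leaving out section 1, 3 or 4 (adjusted p = 0.111 to 0.192). *Tnc* had 4, 7, 2 and 3 UMIs in these spots, 2.87, 4.30, 1.85 and 4.05 CPM against 1.27, 0.82, 1.05 and 0.81 CPM elsewhere (1.76 ± 0.50, edgeR adjusted p = 0.0136). It did not pass without section 2 (edgeR adjusted p = 0.12). The filter on low counts keeps a gene with enough counts in 1 spot group alone, and *Tnc* was tested by way of the marker-high group. With no filter on low counts *Tnc* passed as well.

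*Hapln4* was the member called lower in white matter-marker-high spots, at 17.2, 41.2, 20.3 and 32.4 CPM against 43.2, 65.8, 59.4 and 79.5 CPM (-1.09 ± 0.15, edgeR adjusted p = 1.92e-05). The groups did not overlap. *Ncan* (-0.17 ± 0.12), *Tnr* (0.20 ± 0.14), *Hapln1* (-0.03 ± 0.25) and *Acan* (0.82 ± 0.57) did not pass. All 5 white matter genes kept out of the score were higher (median 2.84), 5 of 8 OPC markers were higher (median 0.84) and all 8 neuron markers lower. These spots were shallower, with medians of 8304.5, 5687.5, 3899 and 4329 UMIs against 15408, 15971, 9369 and 13143. Pooled, these 10% of spots held 8.75% of *Vcan*, 5.76% of *Bcan* and 5.55% of *Ptprz1* UMIs, against 4.76% of all UMIs. The higher CPM of *Vcan*, *Bcan* and *Ptprz1* is thus a higher share and not more UMIs per spot. Among spots with at least 2000 UMIs *Hapln2* was at 2.70, *Hapln4* at -0.99 and *Vcan* at 0.95, all of which passed, and *Ptprz1* did not (0.23, edgeR adjusted p = 0.116).

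In neuron-marker-high spots (*Snap25*, *Syt1* and 6 others) the pattern of CPM turned around, with 2 members higher and 4 lower. The 2 include *Acan*, which the filter on low counts kept by way of these spots, where it is higher. Of 14212 genes 37.6% passed, and the members' median was -0.24 against -0.02 for all genes. These spots were deeper, with medians of 23756.5, 20958.5, 13684 and 19896 UMIs against 14216, 14762.5, 8365 and 11348.5. CPM is a share of the UMIs of a spot group, so a lower CPM need not mean fewer UMIs per spot. *Hapln4* was at 86.0, 132, 95.8 and 160 CPM against 33.4, 53.6, 50.5 and 62.6 CPM. All high values lay above all others, with a log2 fold change of 1.17 ± 0.07 (edgeR adjusted p = 2.16e-09). *Acan* was at 1.90, 1.72, 1.47 and 2.99 CPM, from 7, 9, 5 and 9 UMIs, against 1.06, 0.787, 0.806 and 1.35 CPM (0.94 ± 0.32, edgeR adjusted p = 0.0283). It came through the filter on low counts by way of the marker-high group, and did not pass with no filter. This call was lost in 9 of 16 alternatives, among them leaving out section 2, 3 or 4 (edgeR adjusted p = 0.0624 to 0.105).

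The 4 members called lower in neuron-marker-high spots were each called higher in at least 1 of the glial groups, while *Tnr*, *Hapln1* and *Tnc*, also called higher in a glial group, were not called lower here. *Hapln2* was at 12.2, 8.78, 14.4 and 8.64 CPM against 21.4, 14.0, 19.8 and 22.0 CPM (-0.85 ± 0.13, edgeR adjusted p = 9.31e-05), *Vcan* at 4.07, 6.30, 6.78 and 9.97 CPM against 9.20, 11.1, 9.56 and 13.3 CPM (-0.77 ± 0.16, adjusted p = 0.000995). *Bcan* was at 104, 136, 115 and 119 CPM against 145, 158, 161 and 126 CPM (-0.38 ± 0.07, edgeR adjusted p = 0.000229), and *Ptprz1* at 81.6, 86.4, 67.8 and 85.4 CPM against 104, 101, 96.8 and 94.9 CPM (-0.37 ± 0.06, adjusted p = 0.000195). For *Ptprz1* the groups did not overlap, and for *Bcan*, *Vcan* and *Hapln2* they did across sections, though each section had the lower value in its neuron-marker-high spots. Pooled over the sections, these 10% of spots held 12.5% of *Bcan* and 12.6% of *Ptprz1* UMIs, against 15.1% of all UMIs. *Bcan* and *Ptprz1* were thus lower as a share but not in UMIs per spot. *Vcan* and *Hapln2* were at 9.82% and 9.42%.

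*Ncan*, at 93.0, 68.7, 57.2 and 71.8 CPM against 61.6, 71.6, 61.0 and 67.4 CPM, did not pass (0.08 ± 0.09, edgeR adjusted p = 0.537) and went opposite ways in different sections. *Tnr* (-0.04 ± 0.08), *Hapln1* (-0.11 ± 0.15) and *Tnc* (-1.05 ± 0.45, adjusted p = 0.075) did not pass. Of the 6 neuron genes kept out of the score 5 were higher. These spots were richer in 1 kind of neuron than another: all 6 genes of the *Slc17a7* list of forebrain excitatory neurons were higher (summed 1400 to 1620 CPM against 328 to 735 CPM), all 6 of the striatal list were lower (267 to 509 CPM against 1351 to 1748 CPM), and 3 of the 4 inhibitory neuron genes kept out of the scores were lower.

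Perineuronal nets are best known around parvalbumin neurons, so spots were also ranked by a parvalbumin list (*Pvalb*, *Syt2*, *Kcnc1*, *Lhx6*, *Kcns3* and *Vamp1*). Of the 4 other inhibitory neuron genes, *Gad1* (0.66) and *Erbb4* (0.82) were higher, *Gad2* was lower (-0.50) and *Slc32a1* did not pass, so these are called spots high in the parvalbumin list, not interneurons. The list is shared in part with other fast-firing neurons, and 28.4% to 40.3% of neuron-marker-high spots were also high in it. The *Slc17a7* list was at 717 to 1286 CPM against 504 to 792 CPM and the striatal list at 295 to 532 CPM against 1336 to 1727 CPM. In this comparison 2 members were higher and 2 lower, where 32.7% of 14230 genes passed. These counts include *Acan* (higher) and *Tnc* (lower), each kept by the filter on low counts by way of the spots where it is higher. The members' median was -0.03 and that of all genes -0.01.

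*Hapln4* was at 112, 137, 138 and 173 CPM in spots high in the parvalbumin list and 31.6, 54.0, 45.8 and 61.2 CPM elsewhere. There was no overlap, and the log2 fold change of 1.53 ± 0.06 (edgeR adjusted p = 3.22e-15) had the smallest adjusted p of all member results. *Acan* was at 2.39, 2.30, 2.87 and 4.20 CPM, from 7, 11, 8 and 12 UMIs, against 1.02, 0.714, 0.624 and 1.16 CPM. Again no values overlapped, with a log2 fold change of 1.71 ± 0.33 (edgeR adjusted p = 0.000245). *Acan* came through the filter on low counts by way of the spots high in the list, and passed with no filter too. Of the 113 *Acan* UMIs, 38 or 33.6% (exact 95% binomial interval 25.0% to 43.1%, counting error only) came from these spots, which gave 13.1% of all UMIs.

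*Tnc* was called lower (-2.38 ± 0.68, edgeR adjusted p = 0.00829), with 0, 2, 0 and 1 UMIs in the spots high in the list. That is 3 of 110 UMIs, 2.73% (exact interval 0.566% to 7.76%). *Tnc* came through the filter on low counts by way of the other spots, where it is higher. *Hapln2* was lower too, at 16.8, 8.17, 9.67 and 12.6 CPM against 20.4, 14.1, 20.3 and 21.2 CPM (-0.70 ± 0.13, edgeR adjusted p = 0.000113). Without white matter-marker-high spots, the alternative added after seeing the data, *Hapln2* did not pass (-0.34, edgeR adjusted p = 0.0586) and *Tnc* was too rare to be tested, while *Hapln4* (1.49) and *Acan* (1.76) passed. *Tnc* was also too rare to be tested with the top 5% of spots and without choroid plexus- or fibroblast-marker spots. Its call was lost in 1 of the 12 alternatives that tested it. *Hapln1* was at 9.57, 10.3, 12.9 and 9.81 CPM against 7.40, 9.43, 9.94 and 7.74 CPM, higher in each section, but did not pass (0.28 ± 0.14, edgeR adjusted p = 0.149). *Bcan* (-0.02 ± 0.06), *Ncan* (-0.11 ± 0.07), *Vcan* (-0.18 ± 0.15), *Tnr* (0.02 ± 0.08) and *Ptprz1* (-0.05 ± 0.06) did not pass.

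**Figure D3:**
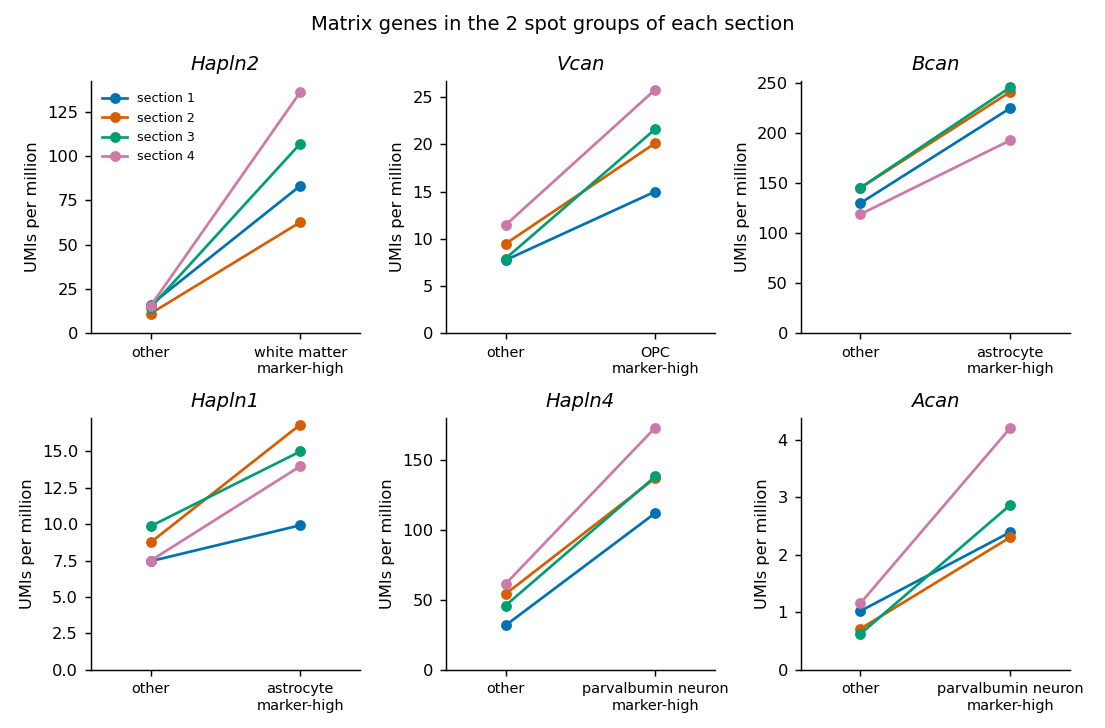
CPM in marker-high spots and in the other spots of the same section, joined by a line per section, for 6 genes and the marker list named on each panel; the axes start at 0. All 4 lines go up in each panel, from 11.02 to 15.9 up to 62.7 to 136 for *Hapln2* in white matter-marker-high spots and least in section 1 for *Hapln1*.

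To compare the spot kinds directly, spots in the top 10% of exactly 1 of the OPC, astrocyte, white matter and neuron scores were kept, 102, 169, 158 and 99 spots as OPC-only in sections 1 to 4, 111, 179, 151 and 101 as astrocyte-only, 113, 174, 162 and 97 as white matter-only and 145, 219, 204 and 128 as neuron-only. Spots high in the parvalbumin list were not left out of these classes. *Acan* and *Tnc* did not pass the filter on low counts in this fit, so 8 members were tested. OPC-only spots were lower than astrocyte-only spots for *Bcan* (171, 180, 175 and 163 CPM against 214, 244, 249 and 180 CPM; -0.38 ± 0.09, edgeR adjusted p = 0.00637). They were higher for *Vcan*, at 11.1, 20.4, 19.9 and 26.0 CPM against 12.6, 10.4, 8.46 and 10.2 CPM (0.86 ± 0.22, edgeR adjusted p = 0.015), a difference that ran the other way in section 1. They were also higher for *Tnr*, at 47.5, 61.5, 41.2 and 62.9 CPM against 42.0, 35.3, 30.8 and 42.4 CPM (0.52 ± 0.14, edgeR adjusted p = 0.0182).

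These were 3 of 8 members, where 5.84% of 11935 genes passed, and the members' median was -0.26. The calls of *Vcan* and *Tnr* were lost in 7 of 15 alternatives each and that of *Bcan* in 3 of 15. By edgeR, *Vcan* did not pass without section 2, 3 or 4 (adjusted p = 0.0969 to 0.192), *Tnr* without section 2 or 4 (0.337 and 0.0645) and *Bcan* without section 2 or 3 (0.0573 and 0.112), and without section 2 the count was 0 by edgeR, with 4 of 8 at an unadjusted p under 0.05 (DESeq2 on all sections called 3). *Ptprz1* was at 137, 128, 122 and 113 CPM in OPC-only and 179, 134, 145 and 135 CPM in astrocyte-only spots and did not pass (-0.25 ± 0.09, edgeR adjusted p = 0.0973). *Hapln1* (-0.53 ± 0.22), *Ncan* (-0.29 ± 0.14), *Hapln4* (-0.28 ± 0.18) and *Hapln2* (-0.14 ± 0.23) did not pass.

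Between OPC-only and white matter-only spots, 16.1% of 11935 genes passed and 2 of 8 members did. *Hapln2* was at 20.8, 10.4, 11.7 and 17.3 CPM in OPC-only and 82.3, 61.6, 90.2 and 128 CPM in white matter-only spots (-2.61 ± 0.18, edgeR adjusted p = 7.56e-12). Its level in OPC-only spots overlapped that in astrocyte-only spots, 21.7, 10.7, 14.6 and 19.5 CPM. *Hapln4* was higher in OPC-only spots, at 62.4, 43.5, 42.6 and 48.4 CPM against 14.7, 34.0, 18.6 and 42.0 CPM (0.80 ± 0.26, edgeR adjusted p = 0.0295), a call that was lost in 7 of 15 alternatives, among them leaving out section 1 (0.46, adjusted p = 0.16) or section 3 (0.75, adjusted p = 0.106) and taking the top 20% of spots (0.12, adjusted p = 0.766). *Vcan* was at 11.8, 16.2, 17.2 and 19.98 CPM in white matter-only spots and did not differ past the threshold from OPC-only spots (0.19 ± 0.24, edgeR adjusted p = 0.666), an interval too wide to show that the levels are alike. *Ptprz1* (0.28 ± 0.10, adjusted p = 0.068), *Bcan* (0.07 ± 0.10), *Tnr* (0.17 ± 0.15), *Ncan* (0.07 ± 0.17) and *Hapln1* (0.29 ± 0.30) did not pass. The fit compares shares of UMIs and not UMIs per spot. Pooled, OPC-only spots held 133 *Vcan*, 866 *Ptprz1*, 1193 *Bcan*, 374 *Tnr*, 438 *Ncan* and 65 *Hapln1* UMIs. White matter-only spots, similar in number, held 55, 348, 551, 160, 204 and 26 in the same order. Of the genes that mark the whole lineage, *Olig1* (-0.98), *Olig2* (-0.97) and *Sox10* (-1.49) were lower in OPC-only than in white matter-only spots.

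Neuron-only spots differed from astrocyte-only spots for 6 of 8 members, where 34.1% of 11935 genes passed, and the members' median was -0.69. *Bcan* was at 97.3, 134, 111 and 110 CPM in neuron-only spots (-1.05 ± 0.08, edgeR adjusted p = 3.62e-10) and *Ptprz1* at 77.9, 83.6, 63.9 and 78.1 CPM (-1.03 ± 0.08, adjusted p = 5.07e-10), both below every astrocyte-only value. *Hapln4* was at 88.2, 130, 101 and 160 CPM against 39.9, 69.9, 43.9 and 78.1 CPM (0.93 ± 0.15, edgeR adjusted p = 1.45e-05). *Hapln1* (-0.86 ± 0.20), *Vcan* (-0.75 ± 0.24) and *Hapln2* (-0.64 ± 0.21) were lower in neuron-only spots, calls that were lost in 1, 4 and 5 of 15 alternatives. *Hapln1* did not pass without section 2 (-0.68, edgeR adjusted p = 0.0623). *Vcan* did not pass without section 1 (-0.50, edgeR adjusted p = 0.142) or section 2 (-0.71, adjusted p = 0.108), and in section 4 it was slightly above the astrocyte-only level, 10.9 against 10.2 CPM. *Hapln2* did not pass without section 1 (-0.55, edgeR adjusted p = 0.103) or section 4 (-0.48, adjusted p = 0.0962), and in section 3 the values were 14.7 and 14.6 CPM. *Ncan* (-0.14 ± 0.12) and *Tnr* (0.14 ± 0.13) did not pass. These are shares of UMIs, so a lower value need not mean fewer UMIs per spot. Pooled over the sections, neuron-only spots held 1615 *Bcan*, 1075 *Ptprz1*, 110 *Hapln1*, 92 *Vcan* and 150 *Hapln2* UMIs. The astrocyte-only spots, fewer in each section, held 1545, 992, 93, 71 and 104 in the same order. Set against the number of spots, pooled *Bcan*, *Ptprz1* and *Hapln1* were lower per neuron-only spot too, and *Vcan* and *Hapln2* were not. In section 4 alone, *Bcan* and *Ptprz1* were not lower per spot.

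**Figure D4:**
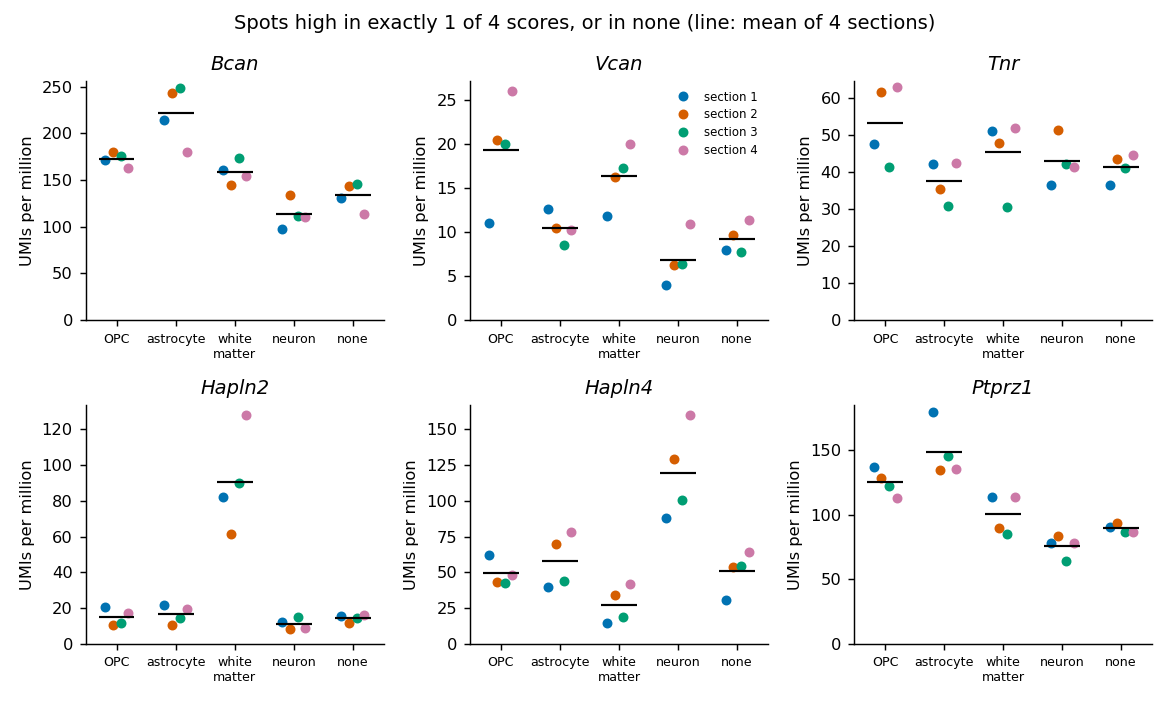
CPM of 6 genes in spots high in exactly 1 of 4 scores or in none, with 1 point per section and a line at the mean of the 4 sections; the axes start at 0. *Hapln2* stands out in white matter-only spots with a mean of 90.5, *Hapln4* in neuron-only spots with 120, *Bcan* in astrocyte-only spots with 222, and for *Vcan* the section 1 point of the OPC-only spots is the lowest of the 4.

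Dividing the spots of each section into 10 deciles of a score showed whether the levels change gradually. Along the white matter score *Hapln2* went from 7.21 ± 2.52 CPM in decile 1 to 14.0 ± 3.95 in decile 5, 41.3 ± 10.4 in decile 9 and 97.3 ± 31.6 in decile 10 (mean ± SD, n = 4), a top to bottom ratio of 8.83 to 31.9 over the sections. The step is at the upper end. *Hapln4* went the other way, from 66.7 ± 17.9 CPM in decile 1 to 46.3 ± 14.3 in decile 9 and 27.9 ± 11.1 in decile 10. *Hapln4* changed over the whole length of the neuron score, from 17.2 ± 7.47 CPM to 35.7 ± 10.9 in decile 5, 93.8 ± 22.3 in decile 9 and 119 ± 33.8 in decile 10. Along the astrocyte score *Bcan* went from 102 ± 10.95 to 137 ± 8.49, 182 ± 27.6 and 226 ± 24.1 CPM in deciles 1, 5, 9 and 10. *Ncan* had ratios of decile 10 to decile 1 from 0.58 to 1.76 over all sections and all 5 scores. They lay on both sides of 1 between sections for every score but white matter (0.58 to 0.95). *Acan* along the parvalbumin list went from 0.337 ± 0.278 to 2.94 ± 0.875 CPM in decile 10.

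**Figure D5:**
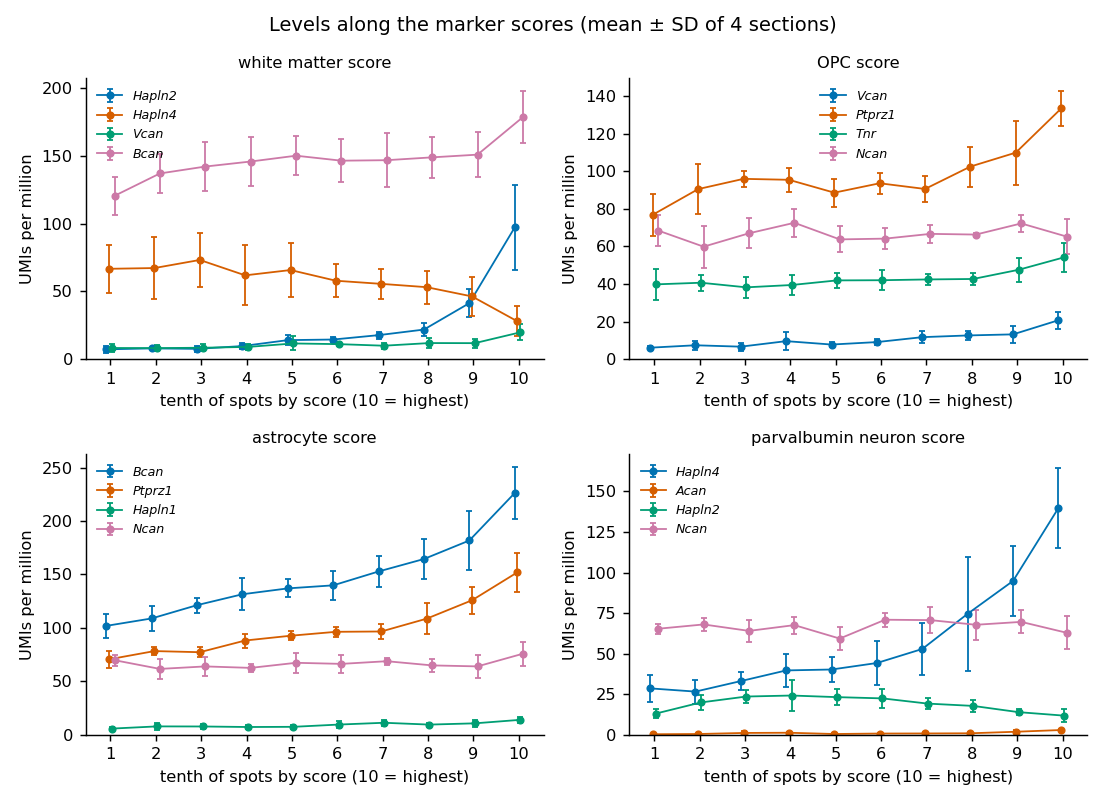
CPM of selected genes in deciles of the spots of a section by marker score (10 = highest), as mean ± SD of the 4 sections; the axes start at 0. *Hapln2* turns up in the last deciles of the white matter score, to 97.3, while *Bcan* along the astrocyte score climbs over the whole range. *Hapln4* along the parvalbumin list goes from 28.6 in decile 1 to 140 in decile 10.

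Levels in spots high in lists for 3 kinds of neuron are given as a description, with no test. In spots high in the striatal list *Hapln4* was at 14.1, 25.9, 15.4 and 15.8 CPM, against 45.6, 69.7, 64.1 and 88.4 CPM elsewhere, below in every section. *Ptprz1* (69.8, 73.8, 70.9 and 60.5 CPM against 105, 102, 95.7 and 99.1 CPM) and *Tnr* (29.5, 36.2, 28.1 and 32.7 CPM against 40.3, 46.4, 42.2 and 48.3 CPM) were below in every section as well. These spots were deeper, with medians of 18941.5, 17604, 12498 and 18978 UMIs against 14217, 14989, 8365 and 11348.5. As 10% of a section's spots they held 8.60% to 10.4% of its *Ptprz1* UMIs and 9.19% to 10.5% of its *Tnr* UMIs. For *Ptprz1* and *Tnr* the lower CPM is thus a lower share, and UMIs per spot differed less. *Hapln4*, at 3.01% to 4.59%, was lower in both. In spots high in the *Slc17a7* list *Bcan* was at 106, 120, 116 and 123 CPM against 144, 160, 162 and 126 CPM, and *Hapln4* at 69.0, 107, 65.0 and 95.5 CPM against 36.9, 58.2, 56.0 and 74.6 CPM. These spots were deeper too, with medians of 21472.5, 19808, 14251 and 18650 UMIs against 14268, 14971.5, 8380 and 11507.5. They held 10.2% to 14.8% of a section's *Bcan* UMIs in 10% of its spots. *Bcan* was thus lower there as a share but not in UMIs per spot. *Ncan* was at 94.2, 74.4, 67.5 and 73.1 CPM against 61.8, 70.7, 59.0 and 67.2 CPM, above in all 4 sections and most in section 1. In spots high in the *Slc17a6* list of subcortical excitatory neurons *Ptprz1* was at 139, 121, 117 and 113 CPM against 96.7, 96.0, 89.7 and 91.5 CPM and *Tnr* at 53.6, 46.7, 51.2 and 56.7 CPM against 37.4, 45.1, 39.2 and 44.9 CPM, both above in every section.

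Likeness across spots was measured within each section as Pearson's r of log2(1 + UMIs per 10000) between a member and each of 9157 genes, and genes were named where r was at least 0.2 in all 4 sections. The points share their library and differ in depth, so r is only a description. The genes that met this for *Hapln2* included *Fth1* (ferritin heavy chain, lowest r 0.301) and *Mbp* (myelin basic protein, 0.291). *Hapln4* was most like *Pvalb* (0.339, 0.393, 0.367 and 0.430), itself a gene of the parvalbumin list, and the genes that met it also included *Snap25* (0.309), a presynaptic SNARE protein. No gene reached this level with any of the other 8 members.

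Genes that make, modify, cut or bind these proteoglycans were counted by list, and each count is to be read against the share of all genes that passed in the same comparison, 5.88% for OPC markers, 16.0% for astrocyte markers, 24.9% for white matter markers, 37.6% for neuron markers and 32.7% for the parvalbumin list. Where a list's share is near or below that, as for the synthesis genes in OPC-marker-high or neuron-marker-high spots and the proteases in white matter-marker-high spots, the genes named are single results and not results about the list. In OPC-marker-high spots 1 of 15 tested chondroitin sulfate synthesis genes was higher, *Xylt1*, which starts the sugar chain (0.58 ± 0.12, edgeR adjusted p = 0.00203). Of 12 other proteoglycans 4 were higher there, among them *Cspg5* (neuroglycan C, 0.21), *Sdc2* (0.27) and *Sdc3* (0.22), and of 12 ligands and receptors 1 was higher, *Mdk* (midkine, a ligand of PTPRZ1, 0.38), and 3 lower, *Rtn4r* (the Nogo receptor, -0.73), *Nptx1* (-0.42) and *Rtn4rl1* (-0.34). Of 16 proteases and inhibitors 2 were higher, *Mmp15* (0.85) and *Timp2* (0.23). The PTPRZ1 ligands *Mdk* and *Ptn* (pleiotrophin) were higher in astrocyte-marker-high spots, by 0.86 and 0.37, where 2 of 12 ligands and receptors were higher and 2 lower. There 3 of 16 proteases and inhibitors were higher, *Timp3* (0.80), *Timp4* (0.79) and *Mmp15* (0.59), and 1 was lower.

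In white matter-marker-high spots the brevican- and versican-cleaving protease *Adamts4* was at 10.1, 2.46, 15.7 and 8.09 CPM and at a mean of 1.17 CPM elsewhere (2.90 ± 0.38, edgeR adjusted p = 1.37e-05). Outside these spots *Adamts4* was about as rare as *Acan* over all spots (mean 1.16 CPM), so this call rests on few UMIs. *Adamts1* was also higher (1.45 ± 0.25), the 2 being those called higher of 15 proteases and inhibitors tested, with 1 lower. *Nfasc*, the neurofascin of nodes and paranodes, was 1 of 3 ligands and receptors called higher (1.15), against 5 of 12 called lower, among them *Rtn4r* (-1.10). *Rtn4r* was higher in neuron-marker-high spots (1.36) and in spots high in the parvalbumin list (0.77), and *Mdk* was lower in both (-0.98 and -0.45). Of 16 sulfate and synthesis genes 2 were higher and 4 lower in neuron-marker-high spots, the lower ones including *Ust* (-0.81), *Chst11* (-0.77) and *Chst15* (-0.74). In spots high in the parvalbumin list the aggrecanase family members *Adamts8* (3.13 against 1.12 CPM; 1.42 ± 0.31) and *Adamts15* (3.55 against 1.39 CPM; 1.36 ± 0.32) were higher (edgeR adjusted p = 0.000706 and 0.00168), 2 of the 4 called higher of 14 tested, and 3 were lower. Both genes were about as rare as *Acan* (mean 2.94 against 0.880 CPM in the same comparison), so these 2 calls rest on few UMIs. The hyaluronan receptor *Cd44* was lower in both neuronal spot groups (-1.46 and -1.44), as was the synthase *Has1* (-1.44 and -1.64). With 37.6% and 32.7% of all genes passing there, these are single results and not results about hyaluronan genes as a group. Each of the genes named here went the same way in all 4 sections.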

How the data were processed

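Per the labels, 4 Visium sections of 10 um brain tissue were processed. The authors made the deposited count matrices (UMIs per gene and spot) with Space Ranger 1.3.1, per the file headers, on mm10, per the submitters' processing notes. From these counts, spots with at least 500 UMIs were kept, scored and summed per section, and the sums were fitted with edgeR 4.0.16 in R 4.3.3 (TMM, filterByExpr, glmQLFit with section as a block); the standard error is the log2 fold change over the square root of F. Marker-high and other spots come from the same tissue section, and their sums deviated together (r = 0.227 to 0.542 within lists), so the section pairs them. Intervals are exact and cover counting error only. Barcodes are a fixed set of positions shared by all slides. Genes were named in the matrix lists where they passed and had 1 direction in all 4 sections, at most 4 per list and comparison. The fits were also run on simulated counts with changes put in. These had no section effect and the same dispersion for all genes, so the section block was not tested by them. Alternatives were DESeq2 1.42.0, no TMM, no filter, no block, other spot shares, a score weighting markers equally, other minimum UMIs, leaving out choroid plexus-, fibroblast- or white matter-marker spots and leaving out each section. Tables were made with pandas 2.3.3, NumPy 2.4.6 and SciPy 1.17.1 and figures with Matplotlib 3.10.9. The members and all lists were chosen with earlier results of these data known. *Hapln4* has no promoter entry. Some genes that met the likeness rule are not reported here.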

Additional observations from a re-analysis of the deposited data

Results flagged for a closer look

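Of 60 member values tested for a section standing apart from the other 3 (Dixon's gap criterion, which chance passes in about 5% of such groups), 6 did. The *Hapln2* level was 13.3 CPM in section 2 against 19.0 to 19.9 in the others. In OPC-marker-high over other spots, the log2 ratio of *Hapln4* was 0.55 in section 1 against -0.63 to -0.44, and that of *Tnr* was 0.16 in section 3 against 0.43 to 0.47. The log2 ratio of *Ncan* in white matter-marker-high spots was -0.70 in section 4 against -0.14 to -0.03. The log2 ratio of *Hapln4* in neuron-marker-high spots was 0.93 in section 3 against 1.299 to 1.37, and that of *Hapln1* in spots high in the parvalbumin list was 0.13 in section 2 against 0.36 to 0.39. The cause of these was not tested.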

How the results depend on the processing

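Of 36 called member fold changes, 18 passed under every alternative and none changed sign; over all alternatives 1006 values kept direction and side of the threshold, 75 lost the call, 19 gained it and 40, all of values not called, changed sign. Causes were not tested. With no replicate block, members called fell from 5 to 2 for OPC markers, from 3 to 0 (edgeR; 5 at an unadjusted p under 0.05, and 3 by DESeq2 with the block) for OPC-only against astrocyte-only spots and from 2 to 1 for OPC-only against white matter-only spots. OPC-only against astrocyte-only was 1 when 5% of spots were taken and 1 under the equally weighted score (0 to 4 leaving out 1 section, 0 without section 2), and OPC-only against white matter-only was 1 with the top 5% (1 to 3 leaving out 1 section, 1 without section 1 or 3). The parvalbumin list went from 4 to 2 members without white matter-marker-high spots.

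Values that changed sign were *Ncan* for OPC markers (0.062 top 20%, 0.022 equal weights, 0.0044 at 2000 UMIs), *Hapln4* for astrocytes (-0.020 no filter, -0.00087 DESeq2), *Tnr* for astrocytes (0.072 top 5%, 0.012 top 20%), *Acan* for white matter (-0.016 top 20%), *Hapln1* for white matter (0.011 top 5%, 0.0087 without choroid plexus spots), *Tnr* for neurons (0.022 no TMM, 0.0059 top 20%), *Bcan* (0.038 top 20%) and *Tnr* (-0.016 no filter, -0.016 top 20%) for the parvalbumin list, *Hapln2* OPC-only against astrocyte-only (0.077 top 5%), *Bcan* (-0.081 top 5%) and *Vcan* (-0.0050 equal weights) OPC-only against white matter-only, and *Tnr* neuron-only against astrocyte-only (-0.11 top 5%). Leaving out 1 section gave ranges across 0 for *Acan* -0.063 to 0.79, *Hapln1* -0.087 to 0.21, *Ncan* -0.11 to 0.068 and *Tnc* -0.21 to 0.98 for OPC markers; *Hapln4* -0.11 to 0.15, *Tnr* -0.15 to 0.018 and *Vcan* -0.0087 to 0.29 for astrocytes; *Hapln1* -0.23 to 0.13 for white matter; *Ncan* -0.084 to 0.16 and *Tnr* -0.11 to 0.0061 for neurons; *Bcan* -0.097 to 0.046 and *Tnr* -0.056 to 0.075 for the parvalbumin list; *Bcan* -0.0074 to 0.12 and *Ncan* -0.021 to 0.17 for OPC-only against white matter-only; *Ncan* -0.35 to 0.044 and *Tnr* -0.028 to 0.27 for neuron-only against astrocyte-only.

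Genes called over the whole table moved by over 1.5 times in these cases. OPC markers went from 838 to 341 (DESeq2), 8 (no replicate block), 380 (top 5%), 508 and 529 (without section 2 or 3) and 538 (without white matter-marker-high spots). Astrocyte markers went from 2305 to 1469 (DESeq2), 631 (no replicate block), 1510 (without fibroblast spots), 1486 and 1432 (without section 1 or 3). Neuron markers went from 5337 to 3540 (DESeq2) and 3156 (no replicate block), the parvalbumin list from 4649 to 2887 and 1788, and white matter from 3539 to 2227 (without section 3). OPC-only against astrocyte-only went from 697 to 169 (no replicate block), 1096 (top 20%), 382 (without fibroblast spots), 303 and 348 (without section 2 or 3), and OPC-only against white matter-only from 1922 to 1121 (top 20%) and 1109 (without section 3). *Acan* and *Tnc* are limited by depth, at 113 and 110 UMIs over the sections.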
